A study of Homo sapiens with 3 samples.

Results

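The cytosolic ribosomal protein genes are the genes for the proteins of the 40S and 60S ribosomal subunits. They were chosen by name: RPLP0, RPLP1, RPLP2, RPSA, and every gene named RPL or RPS followed by digits with an optional A, X or L, leaving out the RPS6K kinases and names with a hyphen. This gave 81 of the 36601 genes measured, 49 of the large subunit and 32 of the small subunit. Ribosomal proteins are made in the cytosol, carried into the nucleus and assembled there with ribosomal RNA, and the finished subunits leave for the cytosol again. Their messengers are short and abundant, and many begin with a C followed by a run of pyrimidines, which ties their translation to growth signalling. Several proteins also act off the ribosome, such as RPL5 and RPL11, which with 5S ribosomal RNA bind the p53 regulator MDM2.

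The data are gene expression and open chromatin read from the same droplets of 1 pool of NCI-H226, an NF2-null human mesothelioma cell line. The pool mixed CL3 with GNE7883, CL3 with DMSO, parental cells with GNE7883 and parental cells with DMSO, each marked by a hashtag antibody. CL3 is 1 resistant line, selected under TEAD inhibitor raised stepwise, by 0.1 to 0.5 µM at a time, between 0.25 and 3 µM. The study compares the resistant line with its sensitive parent and both with and without the drug, but no barcode could be tied to a hashtag here, so no line or treatment is compared, all barcodes form 1 sample, and no value below has a replicate.

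The comparisons are therefore between kinds of barcode. High-mitochondrial barcodes held at least 1000 UMIs (unique molecular identifiers, each 1 captured RNA molecule), at least 1000 counts in chromatin peaks, and over 20% of UMIs from the mitochondrial genome. Empty droplets held 1 to 99 UMIs and under 100 peak counts. Cells held both minimums and at most 20% mitochondrial UMIs. There were 2217 high-mitochondrial barcodes, 412133 empty droplets and 8913 cells. Their median depths were 1792, 1 and 1524 UMIs. Most empty droplets were nearly bare: 410946 held 1 to 9 UMIs. A second set held 24610 barcodes with 20 to under 300 UMIs and under 300 peak counts, median 204 UMIs. It is given beside the empty droplets and is called the low-RNA droplets. The 2 sets overlap. Both hold the 310 barcodes of 20 to 49 UMIs and the 584 of 50 to 99 UMIs with under 100 peak counts. Levels are given as CPM, here a gene's UMIs for every 1000000 non-mitochondrial UMIs, because the mitochondrial share defines the groups. UMIs tag the 3′ end and were not divided by transcript length, so levels are compared between barcodes and not between genes. The 6 mesothelial markers summed to 8689 CPM in high-mitochondrial barcodes, 10432 in empty droplets and 8240 in cells, with none at 0. The 5 immune markers summed to 2.33, 1.44 and 1.61 CPM, and PTPRC and CD3E had no UMI in high-mitochondrial barcodes or empty droplets.

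The start sites of the genes that the results turn on are shown first, because the run of pyrimidines is what these messengers are known for. RefSeq (GRCh38.p14) gave start windows for 64 of the 81 members. Each line has 15 bases before the annotated start and 15 from it, 5′ to 3′, with the C at the start and the C and T bases that follow it in capitals; the bases from the start on are the first bases of exon 1. RPL39, RPS12 and RPL26 were the members raised most in empty droplets, RPS27L was close to them, RPL3 and RPL4 were among the least raised, RPLP1 had the most UMIs, RPL22 varied most between clusters and RPSA was among those that followed.
RPL39 (chrX:119791616-119791645, minus strand): ttcttccgccagcttCCCTCCTCTTCCTTT
RPS12 (chr6:132814554-132814583, plus strand): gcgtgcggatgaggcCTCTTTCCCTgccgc
RPL26 (chr17:8383179-8383208, minus strand): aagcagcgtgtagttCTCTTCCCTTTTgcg
RPS27L (chr15:63157463-63157492, minus strand): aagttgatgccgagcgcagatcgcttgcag
RPL3 (chr22:39319609-39319638, minus strand): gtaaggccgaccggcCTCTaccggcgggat
RPL4 (chr15:66504841-66504870, minus strand): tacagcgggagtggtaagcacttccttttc
RPLP1 (chr15:69452803-69452832, plus strand): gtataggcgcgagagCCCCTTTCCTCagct
RPSA (chr3:39406705-39406734, plus strand): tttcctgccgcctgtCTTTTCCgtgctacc
RPL22 (chr1:6199581-6199610, minus strand): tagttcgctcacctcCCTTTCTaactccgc

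A C at the start followed by C or T, making a run of at least 5, was found at 46 of the members' 79 windows (58.2%) and at 4.07% of all 35116 windows in the RefSeq table. These 46 windows belonged to 46 different members. A run that does not begin with a C at the annotated start base is not counted. Windows from 250 bases before to 50 after the start were also searched on both strands, with overlaps between motifs allowed. The ETS core CCGGAAG stood in 34.2% of member windows and 10.3% of all windows. The SP box GGGCGG stood in 55.7% and 45.0%, and TATAAA in 7.59% and 11.5%. A match is a description of the letters and not a bound site.

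Ribosomal protein messengers made up a larger share of RNA in droplets with little RNA than in cells. They were 14.5% of non-mitochondrial UMIs in high-mitochondrial barcodes (95% interval 14.49 to 14.56), 27.0% in empty droplets (26.87 to 27.08), 32.6% in low-RNA droplets (32.56 to 32.64) and 15.7% in cells (15.73 to 15.76). These are exact Clopper-Pearson intervals that cover counting error only. The small and large subunits kept nearly the same proportion throughout: there were 0.722 small-subunit UMIs per large-subunit UMI in high-mitochondrial barcodes, 0.744 in empty droplets, 0.763 in low-RNA droplets and 0.728 in cells.

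The share differed with depth, with turns in each range of peak counts. With under 100 peak counts it was 26.6% at 1 to 9 UMIs, 22.8% at 10 to 19, 28.0% at 20 to 49, 32.6% at 50 to 99 and 32.8% at 100 to under 300 UMIs, then 24.4% at 300 to under 1000, 17.5% at 1000 to under 2000 and 18.2% at 2000 to under 4000 UMIs. With 100 to under 1000 peak counts it was 19.2% at 1 to 9 UMIs, highest at 100 to under 300 UMIs (24.9%) and 15.4% at 4000 UMIs and over. With at least 1000 peak counts it was 19.7% at 50 to 99 UMIs, 21.6% at 100 to under 300 UMIs, 17.9% at 300 to under 1000, 16.4% at 1000 to under 2000, 14.9% at 2000 to under 4000 and 13.7% at 4000 UMIs and over. Above 300 UMIs the share was thus lower than at 100 to under 300 UMIs in all 3 ranges.

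**Figure D1:**
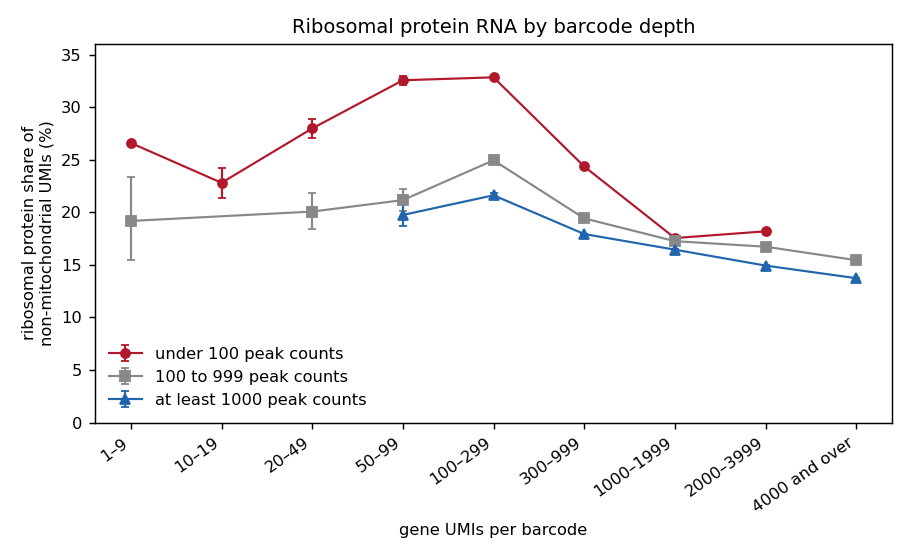
Share of non-mitochondrial UMIs from the 81 ribosomal protein genes (percent, vertical axis) by gene UMIs per barcode (horizontal axis), in 3 ranges of peak counts; points are summed over all barcodes of a bin with at least 50 barcodes and bars are exact 95% intervals. The share peaks at 32.8% in barcodes of 100 to under 300 UMIs with under 100 peak counts and is 13.7% in the deepest barcodes with chromatin.

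Nearly every member took part in the difference between empty droplets and cells. Genes needed 100 UMIs in the 2 sums together to be compared, and count as higher or lower past 1.5-fold, which is a size and not a test. Of the 79 members compared, 63 were higher in empty droplets and 1, RPL39L, was lower, against 8.14% of all 10401 genes compared that were higher and 38.8% that were lower. The members' median log2 ratio was 0.75 and that of all genes -0.38. Summed, the members stood 1.71-fold higher in empty droplets (log2 0.78, 0.77 to 0.78). In low-RNA droplets 75 of 79 were higher and 0 lower, against 8.2% and 53.8% of all genes; the members' median was 1.03, that of all genes -0.68, and the summed members stood 2.07-fold higher (log2 1.05). Scaling by TMM in place of the total moves every gene up by 0.38 in empty droplets and by 0.66 in low-RNA droplets, where most other genes were lower; with it 77 and 79 of 79 members were higher. Of the 78 members with at least 1000 UMIs in cells, all lay above 0 in both sets of droplets.

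Among the proteins of the large subunit's stalk, which recruits translation factors, RPLP1 had 10031 CPM in empty droplets and 11892 in low-RNA droplets, against 5848 in cells. RPLP2 had 3413 and 3947 CPM, against 2273 in cells. RPLP0, the stalk base, had 3155 and 2817 CPM, against 1962 in cells. The partners therefore did not move equally: in low-RNA droplets the log2 ratio was 1.02 for RPLP1, 0.80 for RPLP2 and 0.52 for RPLP0, with counting intervals narrower than the gaps between them.

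Of the 5S particle, RPL5 had 1390 CPM in empty droplets and 1748 in low-RNA droplets, against 1022 in cells. RPL11 had 2619 and 2883 CPM, against 1889 in cells. Both were below the members' median, at log2 0.44 and 0.47 in empty droplets. RPL6, another large-subunit protein, stood lower still, with 1937 CPM in empty droplets and 1651 in cells (log2 0.23, 0.15 to 0.31).

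RPL3 and RPL4 were among the members with the smallest differences. RPL3, which lies near the peptidyl transferase centre, had 1469 CPM in empty droplets and 1268 in low-RNA droplets, against 1207 in cells, log2 ratios of 0.28 and 0.07. RPL4, which lines the exit tunnel, had 1621 and 1629 CPM, against 1254 in cells, log2 0.37 and 0.38. RPL39 stood at the other end of the range, although it lines the same tunnel. It had 4891 CPM in empty droplets and 7182 in low-RNA droplets, against 2050 in cells, or 2.39-fold and 3.50-fold higher. RPL26 had 7034 and 9150 CPM, against 3197 in cells, 2.20-fold and 2.86-fold. RPL10, the late-joining protein of the tRNA corridor, was near the median with 7578 and 8375 CPM, against 4143 in cells (log2 0.87 and 1.02).

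Small-subunit members covered a similar range. RPS12 had 6410 CPM in empty droplets and 7660 in low-RNA droplets, against 2815 in cells, log2 1.19 and 1.44. RPS29 and RPS21 were among the highest in low-RNA droplets, at log2 1.68 and 1.69, and stood at 1.01 and 0.87 in empty droplets. RPS9, at 0.58 and 0.52, was among the lowest in low-RNA droplets.

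Of the small-subunit proteins with roles known beyond translation, RPSA stood lowest of the 3 given here and RPS27A highest. RPS6, the substrate of S6 kinase, had 3729 and 4699 CPM, against 2256 in cells (log2 0.72 and 1.06). RPSA, also known as the laminin receptor, had 2596 and 2754 CPM, against 1754 in cells (log2 0.57 and 0.65). RPS27A, made fused to ubiquitin, had 4480 and 4998 CPM, against 2278 in cells (log2 0.98 and 1.13).

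The paralogs differed in whether they could be measured at all. RPS27L, the relative of RPS27 known as a p53 target, had 2110 CPM in empty droplets and 2999 in low-RNA droplets, against 968 in cells (log2 1.12 and 1.63). RPS27 itself had 4210 and 5442 CPM, against 2290 in cells (log2 0.88 and 1.25). RPL39L, a paralog of RPL39 best known from testis, had 6 UMIs in empty droplets and 194 in cells, or 8.66 and 13.6 CPM, and its ratio (log2 -0.65, -2.12 to 0.50) is too coarse to tell from 0; in low-RNA droplets it had 28.1 CPM (log2 1.05). RPL3L, the striated muscle paralog of RPL3, had 0 UMIs in empty droplets and 2 in cells. RPL10L, a testis paralog of RPL10, had 0 UMIs in all barcodes, which allows up to 0.210 CPM in cells. These intervals and limits cover counting error only.

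**Figure D2:**
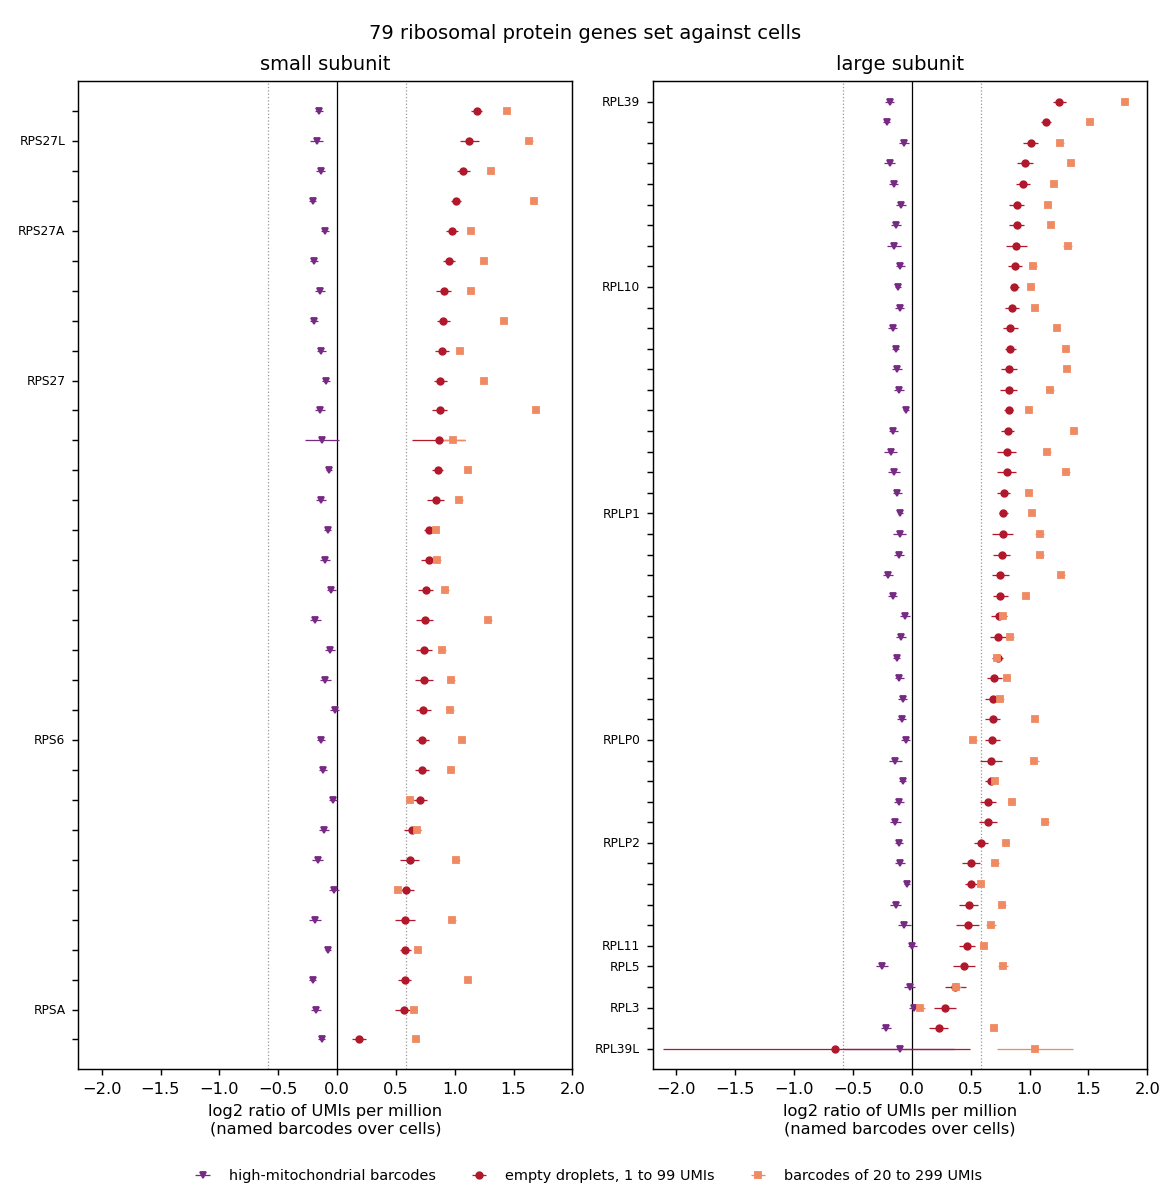
Log2 ratio of CPM over cells (horizontal axis) for the 79 members compared, small subunit left and large subunit right, ordered by the ratio in empty droplets, with role members and paralogs labelled; purple triangles are high-mitochondrial barcodes, red circles empty droplets, orange squares low-RNA droplets of 20 to under 300 UMIs, bars are exact 95% counting intervals and dotted lines mark 1.5-fold. Purple points sit between -0.25 and 0.02, orange points all lie above 0, and red points lie above 0 for every member but RPL39L.

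Groups of members by gene structure had close medians. The 29 members whose span holds a snoRNA gene had a median log2 ratio of 0.75 in empty droplets over cells, and the 50 without one had 0.76. The 26 shortest genes had 0.77 and the 27 longest 0.76. The 46 members with a pyrimidine run at a start had 0.77 (0.47 to 1.25), and the 17 with a window but no such run had 0.75 (0.23 to 1.12). This split depends on the annotated start base. RPL4, RPL9, RPL17 and RPL19 fall in the second group, though runs of C and T lie within 15 bases of a start. Small- and large-subunit members had 0.77 and 0.75. Each pair of groups overlapped over most of its range. Correlations across the 79 members are descriptions over genes that share libraries. With the number of pseudogenes that RefSeq lists for a gene, Spearman's rho was -0.41 for the ratio in high-mitochondrial barcodes, 0.26 in empty droplets and 0.30 in low-RNA droplets. With the level in cells it was 0.10, 0.20 and -0.01, and Pearson's r was 0.02, 0.51 and 0.00. RefSeq lists 1971 pseudogenes for 77 of the members, so counts can be split among near-identical copies. RPS10, with 144 CPM in cells, also overlaps the read-through gene RPS10-NUDT3, which had 133 UMIs.

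Other genes of translation were compared from lists. Of 7 ribosomal components and paralogs outside the name rule, 5 were higher in each set of droplets and 0 lower. FAU, made as a fusion with eS30, had 1383 CPM in empty droplets and 1548 in low-RNA droplets, against 798 in cells. RACK1, the scaffold on the small subunit, had 1870 and 1950 CPM, against 1407 in cells, a smaller difference. RPL7L1 went the other way, at log2 -0.58 in empty droplets and -0.19 in low-RNA droplets, short of 1.5-fold.

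Elongation factors were less uniform. TPT1, grouped with the elongation factors, had 6461 CPM in low-RNA droplets and 2109 in cells, 3.06-fold. EEF1A1 had 8315 and 6391 CPM, 1.30-fold, and EEF2 835 and 768 CPM, 1.09-fold. Of 11 elongation genes 3 were higher and 1 lower in low-RNA droplets. Of 32 initiation genes 6 were higher and 4 lower, with EIF1B and EIF1 at log2 0.99 and 0.97 and the scaffold EIF4G3 at -2.25. Of 40 ribosome biogenesis genes 3 were higher and 10 lower, with the snoRNP protein NOP10 at 1.40 and the large nuclear ATPase MDN1 at -1.85. Beside these counts, 8.2% of all genes were higher in low-RNA droplets and 53.8% lower. In empty droplets the initiation list had a median of -0.15, against 0.14 in low-RNA droplets.

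Genes for other cellular machines were set beside them. Of 32 nuclear genes of the respiratory chain 28 were higher in low-RNA droplets and 0 lower, with a median of 1.18 that exceeded the 1.03 of the ribosomal protein genes. Of 76 mitochondrial ribosome genes compared 39 were higher and 1 lower, median 0.59. Of 23 cytosolic housekeeping genes 11 were higher and 0 lower, median 0.54. Of 8 nuclear long noncoding RNAs 7 were lower, median -2.55. MALAT1, which is retained in the nucleus, had 6162 CPM in low-RNA droplets and 55893 in cells. Of 18 long-intron genes 17 were lower and 1 higher, median -2.19. All 13 mitochondrial genome genes were lower in low-RNA droplets, median -2.51, but in empty droplets 1 was higher and 2 lower, median -0.23. The ribosomal protein genes were thus 1 of several sets that moved mostly one way, and no set was tested against another.

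**Figure D3:**
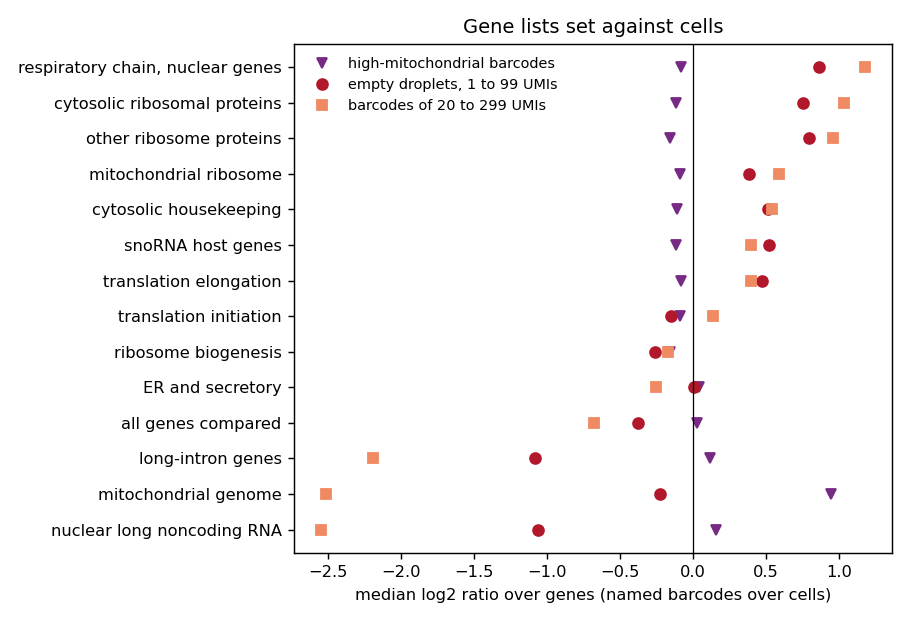
Median log2 ratio over the compared genes of each list (horizontal axis), with the same median over the ribosomal protein genes and over all genes compared; symbols are the 3 kinds of barcode, each set against cells. In low-RNA droplets the respiratory chain (1.18) and the ribosomal protein genes (1.03) lie highest and the nuclear long noncoding RNAs (-2.55) lowest.

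In high-mitochondrial barcodes the members were slightly lower than in cells. None of the 79 passed 1.5-fold in either direction, against 2.88% of all 10943 genes compared. On the log2 scale 77 lay below 0 and 2 above it, RPL3 (0.02) and RPL11 (0.002), whose intervals include 0; under TMM scaling both were also below 0. The members' median was -0.12 and that of all genes 0.03. Summed, the members had a log2 ratio of -0.12 (-0.121 to -0.112), or 0.922 of the level in cells.

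RPL5 had the lowest ratio, with 857 CPM in high-mitochondrial barcodes and 1022 in cells (log2 -0.25, -0.31 to -0.20). RPL6 (-0.22), RPL26 (-0.21), RPS24 (-0.21) and RPS29 (-0.21) followed. RPL4, RPS28 and RPS9 were nearest to no difference below 0, at -0.02, -0.02 and -0.03. RPL11 had 1892 CPM in high-mitochondrial barcodes and 1889 in cells, so the members of the 5S particle stood at opposite ends of the range. The stalk proteins RPLP0, RPLP1 and RPLP2 stood at -0.05, -0.10 and -0.11. RPSA, RPS6, RPS27A and RPL10 stood at -0.18, -0.14, -0.10 and -0.12. RPL39, RPS27, RPS27L and RPL39L stood at -0.19, -0.09, -0.17 and -0.10. RPL3L and RPL10L had no UMI in high-mitochondrial barcodes.

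The direction depended on depth. Within 1000 to under 1500 UMIs the summed members were 16.9% of non-mitochondrial UMIs in 833 high-mitochondrial barcodes and 16.7% in 4322 cells (log2 0.02, 0.01 to 0.03). Within 1500 to under 2500 UMIs they were 15.0% and 15.8% (log2 -0.07). At 2500 UMIs and over they were 13.4% in 688 high-mitochondrial barcodes and 14.8% in 1570 cells (log2 -0.14, -0.149 to -0.136). That range is open at the top and held 31.0% of high-mitochondrial barcodes and 17.6% of cells, so depth was not matched within it. UMIs here include mitochondrial ones, and peak counts were not matched in any range. Of 78 members compared, 48 lay above 0 in the shallowest range, 7 in the middle one and 0 in the deepest, while the median of all genes stayed between 0.00 and 0.01. All 78 had a lower ratio in the deepest range than in the shallowest. RPL3 had 1296 CPM in high-mitochondrial barcodes and 1111 in cells in the shallowest range, and stood at log2 0.22, -0.01 and -0.09 in the 3 ranges, and RPL5 at -0.10, -0.17 and -0.32. No member passed 1.5-fold in any range, against 6.4%, 4.31% and 3.87% of all genes.

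**Figure D4:**
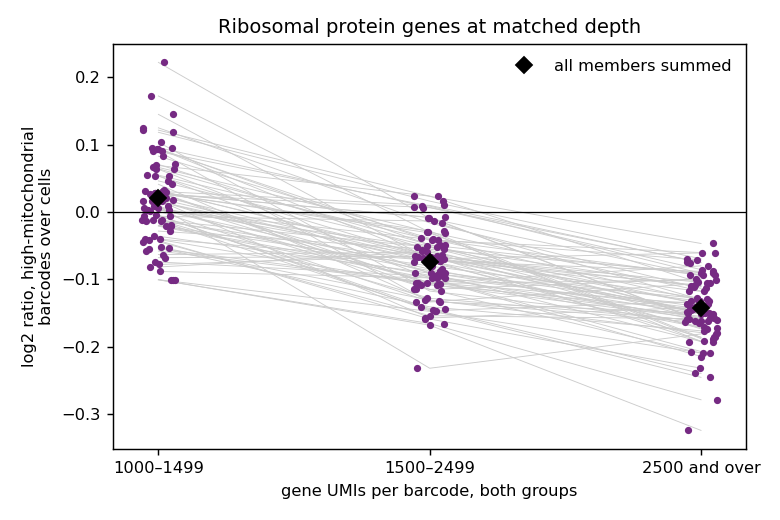
Log2 ratio of high-mitochondrial barcodes over cells (vertical axis) for 78 members when both groups are held to the same range of UMIs per barcode (horizontal axis); grey lines join a gene's values, purple points are genes and black diamonds the members summed. The sum stands at 0.02, -0.07 and -0.14 from the shallowest to the deepest range, which is open at the top.

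Across finer bins of mitochondrial share the members' summed share was lower at each step from 5 to 50%. The median share per barcode was 16.0%, 16.0%, 15.7%, 15.2% and 15.3% in these bins, so it did not fall at every step. The summed share was 14.8% in the 69 cells of up to 5% mitochondrial UMIs, 16.2% from 5 to 10%, 16.0% from 10 to 15% and 15.4% from 15 to 20%. It was 14.6% from 20 to 30% and 14.1% from 30 to 50% in high-mitochondrial barcodes. The slope turned with depth. At 1000 to under 1500 UMIs the share was 16.4%, 16.7%, 16.9% and 16.9% in the 4 bins from 5 to 30%, and at 2500 UMIs and over it was 16.0%, 15.1%, 14.3% and 13.5%. Cells of 15 to 20% over cells of up to 5% gave a log2 ratio of 0.06 (0.04 to 0.08). Of 78 members 51 lay above 0, and none passed 1.5-fold, against 35.6% of all genes in this sparse comparison. RPL3 was highest with 1268 CPM against 874 (log2 0.54), followed by RPS10 (0.49, on few UMIs), RPL18 (0.42), RPLP0 (0.39) and RPS3 (0.33). RPL39 was lowest with 1907 CPM against 2277 (log2 -0.26), followed by RPL12, RPL26, RPS15A and RPL22 between -0.19 and -0.13. Nuclear long noncoding RNA summed to 62355 CPM in the cells of 15 to 20% and 78704 in those of up to 5%, and its part in the result was not tested. The sum changes sign with the minimums and the denominator.

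Single cells varied more than counting allows. The share per cell ran from 3.31% to 35.5% with a median of 15.9%, and 9.48% and 23.6% at the 5th and 95th percentiles. Its SD was 4.34 percentage points, and counting alone would give 0.991. Over the 8913 cells, which share 1 library, the share had a Spearman correlation of -0.03 with the mitochondrial share, -0.16 with UMIs and -0.21 with peak counts. Other lists were computed as shares of the UMIs that are neither mitochondrial nor from the members. The housekeeping list had the highest correlation with the members' share (0.83), then the respiratory chain (0.71) and elongation (0.66). Ribosome biogenesis had 0.12 and ER and secretory genes 0.19. Nuclear long noncoding RNA had -0.61 and long-intron genes -0.38. Cells rich in ribosomal protein RNA were thus also rich in housekeeping and respiratory chain RNA. They were poorer in nuclear long noncoding RNA and long-intron genes. The noncoding list was mostly MALAT1, which had 55893 of the list's 62604 CPM in cells. Which RNA was captured from which compartment was not tested.

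Clusters of cells drawn from peak counts alone differed little. Of 7 clusters, numbered by size, cluster 4 had the highest share, 16.0% in 1449 cells, and cluster 5 the lowest, 15.0% in 674 cells, a log2 ratio of 0.10 (0.09 to 0.11) or 1.07-fold. Between these clusters 0 of 78 members passed 1.5-fold, against 8.05% of all genes. The other 5 lay between 15.5% and 15.9%. Cluster 4 was led by PPP2R2B, ADGRL3 and ITGB8, and cluster 5 by APOA1, ITLN1 and RFTN2. The clusters could not be tied to a line or treatment, and were given no cell type name. Cluster 4 had the highest share at 1000 to under 1500 UMIs (16.9%), but cluster 6 had 16.2% against its 16.1% at 1500 to under 2500 UMIs, and clusters 2, 3 and 4 had 15.0% each at 2500 UMIs and over. At 10 to 15% mitochondrial UMIs cluster 3 had 16.4% and cluster 4 had 16.3%. Cluster 5 had the lowest share at 1000 to under 1500 UMIs (16.4%), at 1500 to under 2500 UMIs (14.6%) and at 2500 UMIs and over (13.3%), but among cells of 5 to 10% mitochondrial UMIs it had the highest (16.7%, 93 cells). Nuclear long noncoding RNA summed to 82886 CPM in cluster 5 and 61074 in the other cells, and its part in the difference was not tested. That sum is mostly MALAT1, at log2 0.46 in cluster 5, while the median over the list was 0.10.

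Over 79 members and 7 clusters, 2 pairs passed 1.5-fold, both of them RPL39L at 4 or 5 UMIs: 5.00 CPM in cluster 5 and 14.3 in other cells, and 22.0 in cluster 7 and 13.5 in other cells. Of all genes, 6.63%, 6.26%, 8.83%, 8.69%, 13.5%, 11.9% and 33.2% passed in clusters 1 to 7. In cluster 5, 68 of 79 members lay below 0, with a median of -0.09 beside -0.05 for all genes. In clusters 3 and 4, 53 and 56 members lay above 0, with medians of 0.02 and 0.04 beside -0.07 and -0.01 for all genes. TMM scaling moved these splits: 60 members lay below 0 in cluster 5, 73 and 60 above it in clusters 3 and 4, and in cluster 1 the number above 0 was 13 in place of 39. The summed log2 ratio changed sign in clusters 1, 2 and 7, from 0.002 to -0.04, -0.0002 to 0.03 and -0.004 to 0.01. Direction over the members is therefore not firm for clusters 1, 2 and 7.

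Single members varied by more than the sum, and the order of members differed between clusters. RPL22, which also regulates splicing off the ribosome, had 1083 CPM in cluster 4 and 893 in other cells (log2 0.28, 0.21 to 0.34). In cluster 6 it had 788 CPM against 935 in other cells (log2 -0.25, -0.34 to -0.15). Its range over the 7 clusters, 0.46, was the widest of the 78 members over 1000 UMIs. The median range was 0.19. These ranges have no interval and include cluster 7 of 120 cells, so they also hold counting error. RPSA had 1909 CPM in cluster 2 and 1709 in other cells (log2 0.16), and 1488 in cluster 5 against 1774 in other cells (log2 -0.25). RPL28 had 3970 CPM in cluster 1 and 3425 in other cells (log2 0.21). RPL10 had 3654 in cluster 4 and 4233 in other cells (log2 -0.21). It lies on chromosome X, whose other 313 compared genes also had a median of -0.21 in cluster 4. The 4 members on chromosome X had a median of -0.02 there. The part of the chromosome in RPL10's ratio was not tested. RPS27 had the narrowest range, 0.08.

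Among the 78 members over 1000 UMIs, these stood at the ends of each cluster's range; RPL39L, on few UMIs, also stood at 0.16 in cluster 2 and 0.22 in cluster 3. In cluster 1, RPL35, RPL8, RPS18 and RPLP0 followed RPL28 at 0.12 to 0.07, and RPL35A, RPL29, RPSA, RPL17 and RPL14 were lowest at -0.13 to -0.11. In cluster 2, RPL4, RPL10A, RPL14 and RPS2 followed RPSA at 0.11 to 0.09, and RPL28 (-0.16), RPL39, RPL21, RPS20 and RPS27L (-0.08) were lowest. In cluster 3, RPL38, RPS13, RPS9, RPL15 and RPL39 were highest at 0.12 to 0.11, and RPS10 (-0.21), RPL11, RPL35, RPL28 and RPL22 (-0.08) lowest. Clusters 1 and 2 thus held RPL28, RPSA and RPL14 at opposite ends.

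In cluster 4, RPL21 (0.25), RPL11 (0.20), RPS10 (0.16) and RPS28 (0.14) followed RPL22, and RPL18, RPS19, RPL13A and RPS16, all on chromosome 19, stood between -0.14 and -0.09 above RPL10. In cluster 5, RPL39 (0.08), RPS29, RPS27, RPL9 and RPL24 (0.03) were highest, and RPSA, RPL36A (-0.22), RPL3 (-0.22), RPL8 (-0.21) and RPS9 (-0.18) lowest. In cluster 6, RPL3 (0.14), RPL6, RPLP0 and RPS19 (0.09) were among the highest, and RPL22, RPL31 (-0.23), RPS12 (-0.21), RPL12 (-0.20) and RPL11 (-0.19) lowest. For these lowest members, the other genes of chromosome 6 (RPS12) had a median of -0.17 in cluster 6. Those of chromosome 1 (RPL22 and RPL11) had -0.10, of chromosome 2 (RPL31) -0.09 and of chromosome 9 (RPL12) 0.03. In cluster 7, of 120 cells, RPS10 (0.20, on few UMIs), RPL36, RPS24 and RPL35 (0.14) were among the highest. RPL12 (-0.23), RPL13, RPS16, RPL4 and RPL21 (-0.17) were lowest there. The 5S partners RPL5 and RPL11 again parted, at 0.09 and -0.19 in cluster 6 and -0.02 and 0.20 in cluster 4.

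On chromosome 3 the members stood on 1 side of 0 in 3 of 7 clusters. Chromosome 19 held 12 members and chromosome 3 held 8, more than any other. All 8 on chromosome 3 lay below 0 in cluster 1, with a median of -0.11, and the other 583 compared genes of that chromosome had a median of -0.09, where all genes had 0.04. All 8 lay above 0 in cluster 2 (median 0.06) and in cluster 3 (0.09), where the other genes of the chromosome had medians of 0.03 and 0.00. The 12 on chromosome 19 had 11 above 0 in cluster 6 (median 0.06), where the chromosome's other 648 genes had 0.11, and 11 below 0 in cluster 5 (median -0.10, other genes -0.05). In the other 5 clusters the 12 were split, with 6 or 7 above 0. Such splits were not particular to chromosome 3. All 4 members of chromosome 8 lay above 0 in cluster 1 and below it in clusters 5 and 6. The chromosome's other genes had medians of 0.14, -0.06 and -0.06 there. The 4 of chromosome 9 lay above 0 in clusters 1 and 4 and below it in cluster 2, with other genes at 0.09, -0.02 and -0.07. The 4 of chromosome 15 lay below 0 in clusters 1 and 5 and above it in cluster 4, with other genes at 0.03, -0.04 and 0.05. The other genes thus stood on the members' side except for chromosome 9 in cluster 4 and chromosome 15 in cluster 1. Chromosomes 3 and 19 were picked for their number of members, and the medians are descriptions. Each cluster was set against all other cells, so the sides taken in different clusters are not independent.

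**Figure D5:**
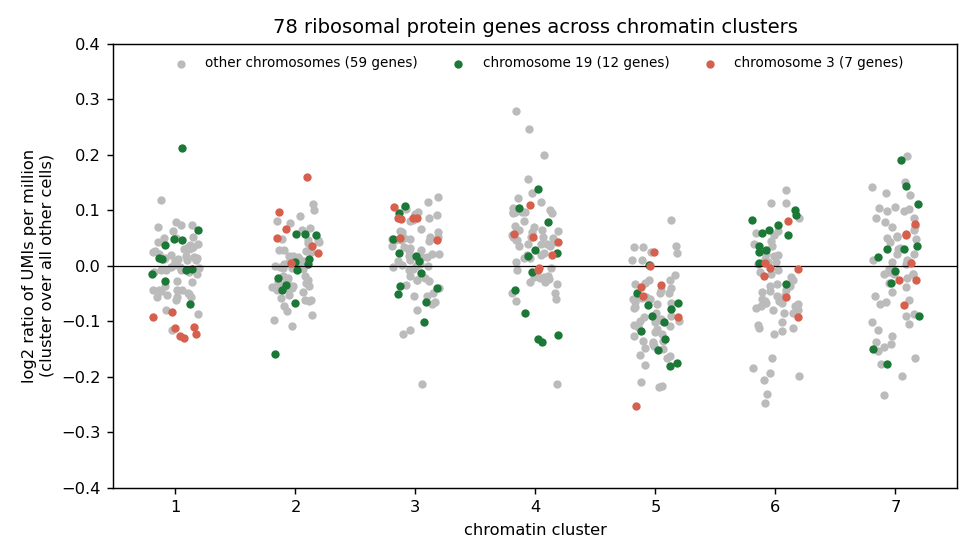
Log2 ratio of CPM in each chromatin cluster over all other cells (vertical axis) for the 78 members with at least 1000 UMIs in cells; red points are genes on chromosome 3, green on chromosome 19, grey on the others, with sideways scatter added for sight only. All points lie between -0.25 and 0.28, and the chromosome 3 genes lie below 0 in cluster 1.

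Open chromatin at the members' start sites varied less between kinds of barcode than their RNA. A peak lay within 1000 bases of the start of 79 of the 81 members, against 62.0% of all genes; RPL10L and RPL3L had none. The 93 peaks may also serve neighbouring genes. They held 0.226% of peak counts in high-mitochondrial barcodes (0.223 to 0.229), 0.258% in empty droplets (0.242 to 0.276) and 0.232% in cells (0.231 to 0.234); intervals take every 2 counts as 1 event. High-mitochondrial barcodes over cells gave a log2 ratio of -0.04 (-0.07 to -0.02). None of 79 members passed 1.5-fold, against 1.69% of all genes with a start peak, and the members' median of -0.04 lay beside -0.02 for all genes.

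RPL11 had the highest ratio at its start, with 19.7 of every 1000000 peak counts in high-mitochondrial barcodes and 16.6 in cells (log2 0.25, -0.01 to 0.51). RPS23 (0.23), RPS25 (0.20) and RPL35A (0.19) were among those that came next. RPS3 had the lowest, with 15.5 and 19.9 on the same scale in high-mitochondrial barcodes and cells (log2 -0.36, -0.65 to -0.09), then RPL32, RPS3A, RPS13 and RPL36A at -0.26 to -0.25. Most of these intervals reach 0 or come close to it. RPL5, the lowest in RNA, stood at 0.13 in its start peaks.

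Between clusters, start peaks differed more than RNA, but the clusters were drawn from peaks, so these values are not independent of the grouping. They also rest on fewer counts and hold more counting error. In cluster 7 the members' start peaks held 1630 counts, with every 2 taken as 1 event, and their RNA 28525 UMIs. Single members had from 0 (RPL36A) to 75 (RPL36) start counts there. The share ran from 0.173% of peak counts in cluster 7 to 0.248% in clusters 4 and 5. Cluster 7 had 31 of 79 members lower and 0 higher past 1.5-fold, against 27.8% and 8.57% of all genes, and 40.4% of its peak counts lay at gene starts, against 45.7% over all cells. In clusters 1 and 4 no member passed, against 2.5% and 2.95% of all genes higher and 3.92% and 6.87% lower. In cluster 2 none of 79 members was higher and 3 were lower, RPL17, RPL6 and RPL7A, against 2.06% and 3.57% of all genes. The share of members that were lower was thus near that of all genes. In cluster 3 RPL17 was higher and RPS4X lower, against 2.74% and 3.25%, and in cluster 5 RPL6 was higher and none lower, against 4.01% and 5.64%. In cluster 6, 5 of 79 members were lower, a smaller share than the 7.77% of all genes: RPS4X (-1.04), RPS10 (-0.99), RPL5 (-0.93), RPL22 (-0.77) and RPL10A (-0.59). RPS10 and RPL10A lie on chromosome 6, whose other genes had a median start peak ratio of -0.25 in cluster 6. RPL5 and RPL22 lie on chromosome 1 (other genes -0.18), and RPS4X on chromosome X (other genes 0.01). Of the 5 lower members, RPL22 was also lowest in RNA (-0.25), while RPL5 and RPS4X had RNA ratios of 0.09 and 0.06. RPL3 had the only start peak higher past 1.5-fold in cluster 6 (0.78), against 3.62% of all genes, and the highest RNA ratio there. Over 78 members, start peak and RNA ratios had a Spearman correlation of 0.46 in cluster 1 and between -0.05 and 0.19 in clusters 2 to 6, as descriptions over genes of 1 library. In cluster 7 the correlation was -0.07 over 77 members.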

How the data were processed

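Gene expression and chromatin accessibility were measured in 1 pool. The deposited matrix holds whole-number counts of UMIs per gene and of cuts per peak for 651860 barcodes, unfiltered, and names Cell Ranger ARC 2.0.0, per the file headers. Cell Ranger 2.0.0, ArchR 1.0.3, MACS2 and GRCh38.p10 are also named, without roles, per the submitters' processing notes; how strand and multi-mapped reads were handled is not known here. The deposited counts carry no normalisation. Of peak entries 87.9% were even.

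The members, the gene lists and the comparisons were chosen with earlier results of these data known. Cells had at least 1000 UMIs, 1000 peak counts and at most 20% mitochondrial UMIs. Doublets were not removed, since hashtags could not be read; as an alternative, cells in the top 8% by UMIs were dropped. Counts were summed per kind of barcode and divided by non-mitochondrial UMIs. Intervals are 95% exact Clopper-Pearson or conditional binomial; with 1 pool there is no test. The ratio step was checked on simulated counts. The matrix holds 54494965 UMIs, of which 16588148 lie in cells.

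Clusters came from peaks in at least 20 cells by term frequency and inverse document frequency, 30 components without those correlated over 0.75 with depth, 15 neighbours and Leiden resolution 0.5 (Python 3.11.15, scikit-learn 1.9.0, leidenalg 0.10.2). TMM and median-of-ratios factors came from edgeR 4.0.16 and serve as alternatives. Named genes were the 5 highest and 5 lowest members of each comparison among those with at least 100 UMIs over both sums, members under that floor in cells, and fixed role members with their paralogs, given for clusters and mitochondrial bins where they stood at an end. For each list up to 4 genes were eligible, the 2 highest and 2 lowest; EEF1A1 and FAU were named after their values were seen. Start windows from chromosome 8 are not printed. Values of some named genes are not reported here. The comparison within ranges of UMIs was added after the data were seen.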

Additional observations from a re-analysis of the deposited data

How the results depend on the processing

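The share in cells was 13.5% with all UMIs as denominator, 18.7% with the members left out of it, 14.8% at minimums of 2000, 16.5% at minimums of 500, 16.0% without the 8% of cells with the most UMIs and 16.1% in cells of at most 10% mitochondrial UMIs. High-mitochondrial barcodes over cells stayed below 0 in every alternative of scaling, denominator, minimums and cells kept: log2 -0.30 with all UMIs, -0.14 without members in the denominator, -0.13 at minimums of 2000, -0.14 without the top 8%, -0.15 by TMM, -0.15 by median of ratios and -0.15 with cells of at most 10%. Within ranges of UMIs, added after the data were seen, it was 0.021 at 1000 to under 1500 UMIs (direction reversed). It was -0.074 at 1500 to under 2500 and -0.14 at 2500 and over, a range open at the top where depth was not matched. The cause was not tested. Its count of members past 1.5-fold was 1 with no floor on UMIs, in place of 0.

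Empty droplets over cells stayed above 0: log2 0.81 with all UMIs, 0.98 without members in the denominator, 0.87 at minimums of 2000, 0.71 at 500, 0.75 without the top 8%, 1.15 by TMM, 1.16 by median of ratios, 0.75 with cells of at most 10%, 0.75 with droplets of 1 to 19 UMIs and 1.05 with droplets of 20 to under 300. Its count of members past 1.5-fold was within 1.5 times 64 throughout.

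The highest over the lowest cluster was chosen from the data and so is always above 0: 0.11 without members in the denominator, 0.069 at minimums of 2000, 0.034 at 500, 0.045 without the top 8%, 0.11 by TMM, 0.11 by median of ratios, 0.026 with cells of at most 10%, 0.20 at resolution 1.0 and 0.051 at 0.3. The pairs past 1.5-fold numbered 0 at minimums of 2000, 1 at 500, 1 without the top 8%, 0 with cells of at most 10%, 0 at resolution 0.3 and 9 with no floor, in place of 2. The mitochondrial bins, log2 0.06, reversed to -0.17 with all UMIs, -0.15 at minimums of 2000 and -0.20 at 500, and moved to 0.19 without the top 8%; the cause was not tested. The start peak ratio changed by less than its interval. No paired analysis was possible because the pool is a single sample with no replicates. Depth limits what can be said of RPL39L, RPL3L and RPL10L, and of the 0 to 5% bin of 69 cells.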
